A study of Mus musculus with 12 samples.

Results

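A set of 10 genes of DNA replication and cell division were followed in sorted mouse microglia: the helicase subunits Mcm2, Mcm5 and Mcm6, the kinase gene Cdc7, the synthesis genes Pcna and Rrm2, the transcription factor gene E2f1, and Top2a, Kif2c and Birc5, which act on chromosomes at mitosis. They were chosen by gene name, and all 10 were found among the 770 genes of the NanoString nCounter Neuroinflammation panel, which counts RNA molecules with one color-coded probe per gene and without amplification. The panel was run on 12 samples of microglia, each made from the pooled CNS of 2 C57B6 mice, a male and a female. The cells were enriched with CD11b beads, fixed, permeabilized, stained for ERK1/2 phosphorylated at its activating threonine and tyrosine, and sorted as YFP+, CD45 intermediate and Ly6G-, where YFP is driven by the Cx3cr1 promoter, which is also active in other macrophages and in monocytes.

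Aged mice were over 80 weeks old, and their microglia were split into P-ERK1/2 High (samples 2, 5, 7 and 8) and P-ERK1/2 Low (samples 3, 6, 9 and 12). Adult mice were 12 to 20 weeks old, and their microglia were taken whole, whatever their ERK1/2 phosphorylation (samples 1, 4 and 10, with sample 11, which its title marks as excluded for poor quality, set apart here). The labels call mice and cells untreated, whereas the study's text places both age groups after tamoxifen. The labels do not say whether a High and a Low sample came from the same mice, so p-values measure the spread between these samples. The 3 comparisons share their groups, so their results are not independent of each other.

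Replication begins when the MCM helicase is loaded at origins and is then switched on by kinases, among them the CDC7 kinase. The E2F transcription factors raise many genes of DNA synthesis as a cell passes from G1 into S phase, and genes of chromosome condensation and segregation follow later, towards mitosis. Microglia are long-lived and divide rarely in the resting brain, and ERK1/2 signaling downstream of growth factor receptors is one of the known inputs to cell cycle entry.

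To show what lies before these genes, the upstream sequence of 3 of them is given from RefSeq (GRCm38.p6), up to the annotated gene. They were chosen because Mcm5 and Mcm6 encode subunits of one helicase but had different levels across the groups, and because Top2a followed Mcm6. Capitals mark TTTNNCGC, a common form of the E2F motif, and CCAAT, the motif of the factor NF-Y, each on either strand. The Mcm5 sequence is chr8:75109259-75109467 on the plus strand, the Mcm6 sequence is chr1:128359706-128359955 on the minus strand, and the Top2a sequence is chr11:99024200-99024439 on the minus strand.
Mcm5: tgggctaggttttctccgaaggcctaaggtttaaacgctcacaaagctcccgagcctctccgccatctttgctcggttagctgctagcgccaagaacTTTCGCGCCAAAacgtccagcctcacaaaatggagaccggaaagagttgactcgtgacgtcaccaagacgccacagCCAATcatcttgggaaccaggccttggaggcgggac
Mcm6: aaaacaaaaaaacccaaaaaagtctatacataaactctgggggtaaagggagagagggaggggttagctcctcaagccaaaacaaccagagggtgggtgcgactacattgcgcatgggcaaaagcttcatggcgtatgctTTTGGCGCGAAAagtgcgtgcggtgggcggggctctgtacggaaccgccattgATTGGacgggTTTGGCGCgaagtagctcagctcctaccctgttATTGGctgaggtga
Top2a: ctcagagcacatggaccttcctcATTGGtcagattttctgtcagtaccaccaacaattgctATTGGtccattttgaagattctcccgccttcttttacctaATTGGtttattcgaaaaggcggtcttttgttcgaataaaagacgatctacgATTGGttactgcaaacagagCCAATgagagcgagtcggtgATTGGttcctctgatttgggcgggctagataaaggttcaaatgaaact

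In the window from 250 bases before to 50 after the first listed start of each gene, 2 of the 10 genes held TTTNNCGC, Mcm5 and Mcm6, against 5.17% of all 32851 promoter windows and 7.15% of the windows of 601 panel genes. The 2 strands of this motif overlapped in both genes, and Mcm6 held a further copy 47 bases before its start. A second E2F form, GCGGGAA, was found only in the Cdc7 window, 14 bases after the start, and in 4.6% of all windows. CCAAT was found for 6 of the 10 genes and in 37.4% of all windows, with 6 matches before Top2a alone. TTTGAA, searched as a form of the element bound by the DREAM complex, was found for 4 of the 10 (Top2a, Mcm2, Cdc7 and Kif2c) and in 17.9% of all windows. The first listed starts of Kif2c and E2f1 lie inside the annotated genes, so their windows do not lie before the gene. These matches describe letters in a window and not bound sites.

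Values are the authors' normalized counts, in which every probe count of a sample was multiplied by 1 factor that sets the 13 housekeeping genes to a geometric mean of 172.7. Total probe counts were 123798 to 157209 in P-ERK1/2 Low, 137980 to 326575 in the 3 adult samples and 650965 to 1539936 in P-ERK1/2 High, so a value in the Low and adult samples rests on fewer counts. The background of a sample, set from its 8 negative control probes as their mean with 2 SD added and put on the same scale, stood at 69.2 to 117 in Low, 37.9 to 95.1 in adult and 26.1 to 39.5 in High. Of the 10 genes, 9 were above background in every High sample, 8 in every Low sample and 5 in every adult sample, beside 566, 385 and 415 of the 770 panel genes. Cdc7 was above it in no Low and no adult sample. Of 8 microglia markers, the summed level was 2851 to 3544 in High, 3371 to 3692 in Low and 3487 to 3801 in adult, with Csf1r as its largest part. The single markers moved within that sum. At a limma p below 0.01 and a log2 change of more than 1, P2ry12, Tmem119, Sall1 and Gpr34 were called higher in High than in Low, with 28.2% of the panel, and Tmem119, Fcrls and Olfml3 lower in Low than in adult, with 2.73%. Csf1r ran the other way, with 1195 to 1838 in High, 2602 to 2937 in Low and 1655 to 2053 in adult. P2ry12 and Gpr34 were above background in no Low sample.

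High sample 7 and adult sample 11 stood apart. Sample 7 was the lowest High sample for 9 of the 10 genes, all but Cdc7, and lay within or below the range of the adult samples for 5 (Mcm2, Mcm5, Pcna, Rrm2 and Birc5), whereas the other 3 High samples lay above every adult sample for all 10. Other genes placed sample 7 on both sides. It was nearer to the adult samples in Fcrls, a microglia gene (541, against 131 to 225 in the other High samples and 563 to 851 in adult), Olfml3 (399.8, against 131 to 189 and 538 to 746), Cx3cr1 (95.5, against 142 to 247 and 72.2 to 106), Gadd45a (387, against 55.8 to 119 and 665 to 1092) and Cd36 (314, against 969.9 to 1679 and 415 to 627), and with or above the High samples in P2ry12 (282, against 128 to 151 and 72.6 to 101), Tmem119 (510, against 175 to 282 and 134 to 153), Sall1 (347, against 192 to 448 and 143 to 157) and Gpr34 (174, against 80.3 to 180.1 and 79.4 to 97.8). In Ets2, an ERK-responsive transcription factor gene, it had 1470, where the other High samples had 2647 to 3803 and all Low and kept adult samples 147 to 320. Its total of 650965 probe counts was the lowest of the High samples and above every Low and kept adult sample. Sample 11 lay above every kept adult sample for all 10 genes and above every Low sample for 9. Its Fcrls value was 224, its Ets2 value of 4909.9 was the highest of the 12 samples, and it had 148 for P2ry12, 241 for Tmem119, 521 for Sall1 and 189 for Gpr34, each above the kept adult samples. Whether the labels of samples 7 and 11 are right was not tested. The labels were kept. For the 10 genes, the counts called are given with and without each of these samples, and fold changes are also given without sample 7. Counts for the other gene lists are given with sample 7 and without sample 11 unless stated.

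**Figure D1:**
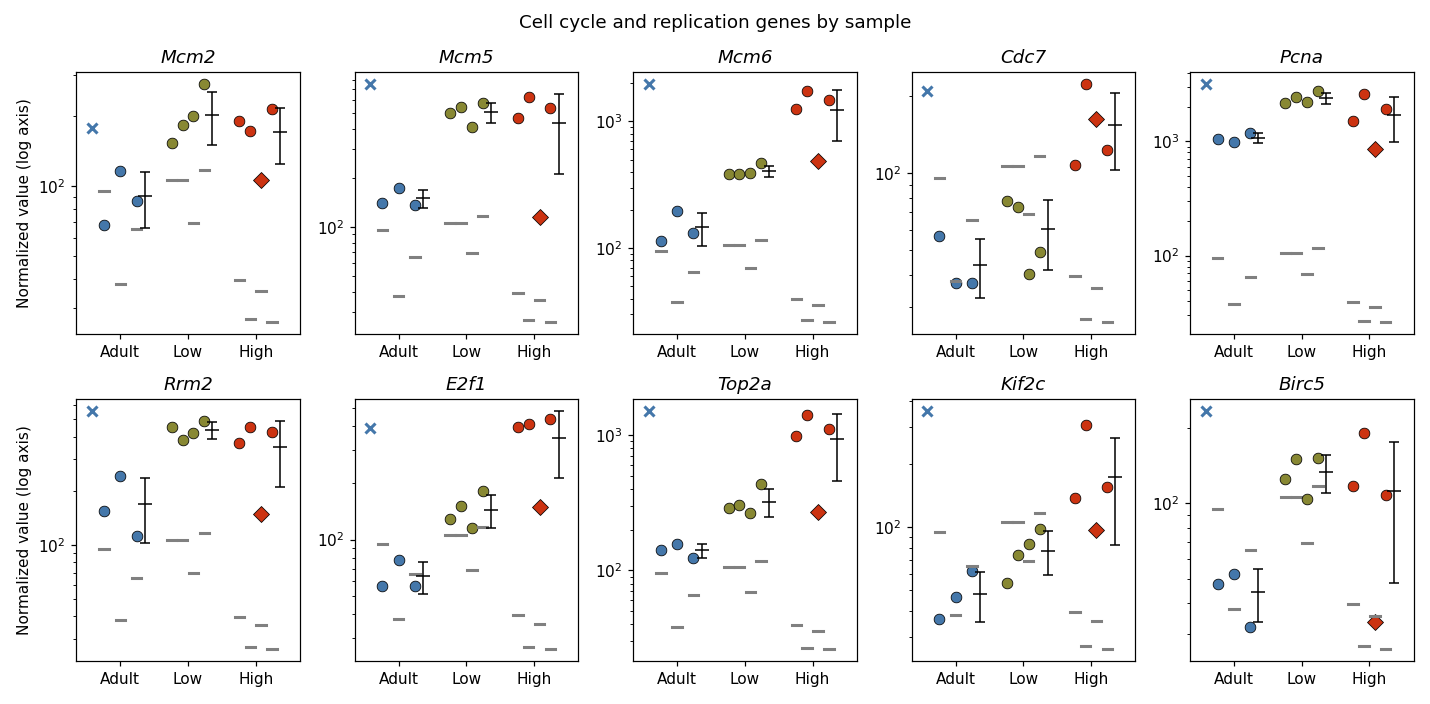
Normalized values (log axis) of the 10 genes in each sample, with adult samples in blue, P-ERK1/2 Low in olive and P-ERK1/2 High in red. A diamond marks High sample 7, a cross the excluded adult sample 11, a short grey line the background of each sample, and the black mark to the right of each group its mean ± SD (n = 3, 4 and 4). The 4 Low samples lie above all 3 adult samples for 8 genes (26.1% of the panel), and only Mcm6 and Cdc7 have every High sample above every Low sample (31.3% of the panel).

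The comparison of P-ERK1/2 Low with adult microglia sets the aged cells of low ERK1/2 phosphorylation against adult cells that were not gated on it, so age and gate cannot be told apart in it. A gene was called when limma on log2(value + 1) gave a p below 0.01 together with a log2 change of more than 1, and adjusted p-values are by Benjamini and Hochberg over all 770 genes. Of the 10 genes, 8 were called higher in Low, where 8.05% of the panel was called higher, and 0 were called lower, against 2.73%. In the values as deposited, 0 of the 10 reached an unadjusted p under 0.05 towards lower in limma in any of the 3 comparisons. The panel was not counted at that limit, so this 0 does not set the 10 genes apart from the panel. The same 8 had every Low sample above every adult sample, as did 26.1% of the panel in that direction. The count of 8 called depended on the scaling and the test, with 4 under total-count scaling, 0 under positive-control scaling and 5 in a plain test, beside 3.12%, 1.04% and 5.32% of the panel called higher. The median log2 fold change of the 10 genes was 1.16, beside 0.10 over all genes. The comparison of P-ERK1/2 High with Low sets the gates against each other in aged mice. High and Low also differed in total probe counts, background and markers of other cells, which cannot be told apart from the phosphorylation in it. There 4 of the 10 were called higher (Mcm6, Cdc7, Kif2c and E2f1), with 28.2% of the panel called higher, and 0 lower, with 9.61% called lower. The groups did not overlap for 2, Mcm6 and Cdc7, against 31.3% of the panel higher without overlap. These calls also depended on scaling and test. With total-count scaling 0 of the 10 were called higher and 5 lower (Mcm2, Mcm5, Pcna, Rrm2 and Birc5), beside 7.66% of the panel higher and 40.4% lower, and a plain test on the deposited values called 1 higher, beside 20.3%. The share of the 10 genes called higher in the deposited values was near that of the panel, and their median log2 fold change was 0.40, beside 0.26 over all genes. Against adult, 5 of the 10 were called higher in High (Mcm6, Cdc7, E2f1, Top2a and Kif2c), with 29.2% of the panel, and 0 lower, with 7.66%. The same 5 did not overlap with adult, against 35.1%. The count called became 1 with total-count scaling, 9 with scaling by 6 of the housekeeping genes and 10 with positive-control scaling. The panel shares were then 5.19%, 45.7% and 54.5%. The median log2 fold change of the 10 genes was 1.51, beside 0.35 over all genes.

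The 10 genes fell into 2 sets between High and Low. A group of 5, Mcm6, Top2a, Cdc7, E2f1 and Kif2c, had log2 fold changes of 1.06 to 1.46, all called but Top2a, and the other 5, Mcm2, Mcm5, Pcna, Rrm2 and Birc5, had changes of -0.59 to -0.26 that did not pass the test. The scaling moved the median of all genes, which was 0.26 as deposited, 1.02 with 6 housekeeping genes, -0.74 with the total count and 2.15 with the positive controls. The sign of the second 5 therefore turned to higher in High with the 6 housekeeping genes or the positive controls. These 6 were kept of the 13 because they varied least against each other in these samples. Each of them had lower deposited values in every High sample than in any Low sample, for instance Lars at 72.2 to 184 in High and 268 to 348 in Low. As deposited, the first 5 lay 0.81 to 1.21 above the panel median and the second 5 lay from -0.84 to -0.51 relative to it. A scaling shifts all genes of a sample alike, so these relative values say nothing of which scaling is right.

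**Figure D2:**
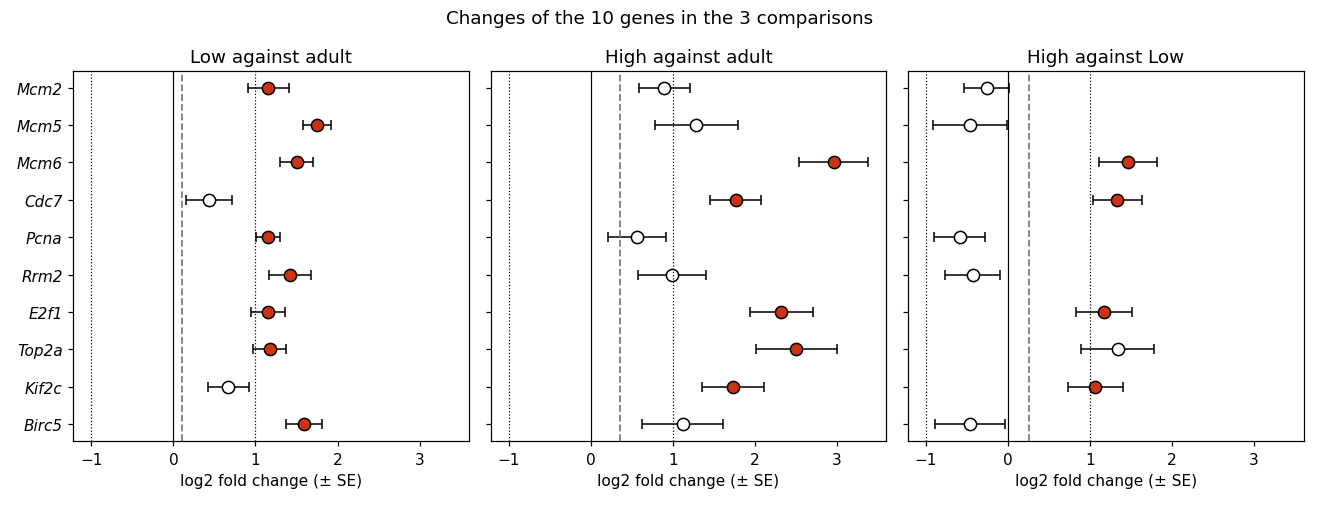
Log2 fold change ± SE of each gene (limma) in P-ERK1/2 Low against adult, High against adult and High against Low. Filled points were called, the dashed grey line is the median of all 770 genes and dotted lines mark a log2 fold change of 1 in either direction. Between High and Low the genes split into 5 at 1.06 to 1.46 and 5 at -0.59 to -0.26.

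Mcm6 encodes a subunit of the replicative helicase. Its values were 113, 196 and 131 in adult samples 1, 4 and 10. They were 383, 386, 393 and 468 in Low samples 3, 6, 9 and 12 and 1249, 1733, 489.6 and 1482 in High samples 2, 5, 7 and 8. The 3 groups followed each other without overlap, adult below Low below High, although sample 7 lay close to the highest Low sample. The means were 147 ± 43.3 in adult (SD, n = 3), 407 ± 40.4 in Low (n = 4) and 1238 ± 537 in High (n = 4). Its log2 fold change was 1.50 (SE 0.21, limma adjusted p = 0.0023) for Low against adult and 1.46 (SE 0.35, adjusted p = 0.0044) for High against Low. Against adult it was 2.96 in High (SE 0.42, adjusted p = 0.00026). Without sample 7 the High values were 1.86 over Low and 3.36 over adult.

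Mcm5, another subunit of that helicase, differed from it in High. It had 141, 172 and 136 in the adult samples, 498, 539.9, 409 and 574 in Low, and 464, 622, 115 and 535 in High. All Low samples were above all adult samples, by a log2 fold change of 1.75 (SE 0.17, limma adjusted p = 0.0006), which ranked 12 of 770 by increase. High and Low overlapped, with a log2 difference of -0.46 (SE 0.45, adjusted p = 0.41). Without sample 7 that difference was 0.10, and High against adult went from 1.29 (adjusted p = 0.058) to 1.84 (adjusted p = 0.00022). Mcm2, a further subunit, had 68.1, 116 and 86.5 in the adult samples, 152, 182, 201 and 275 in Low, and 189.9, 172, 107 and 214 in High. Low lay above adult by 1.16 (SE 0.25, adjusted p = 0.012), a call that was lost without Low sample 12 or without adult sample 1. High overlapped with Low and, through sample 7, with adult. Its High to Low difference was -0.26 (SE 0.28, adjusted p = 0.44), and its High to adult difference of 0.90 (adjusted p = 0.033) became 1.11 (adjusted p = 0.0065) without sample 7, when the former was -0.048.

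Cdc7 encodes the kinase that phosphorylates the loaded helicase at the start of synthesis. It had 56.7, 37.3 and 37.1 in the adult samples, 77.9, 73.6, 40.1 and 49.2 in Low, and 107, 223, 163 and 123 in High. Every High sample lay above every Low and adult sample, and it was the one gene of the 10 in which sample 7 was not the lowest High sample. No Low or adult sample was above background, with 12 to 23 probe counts in Low and 15 to 32 in adult. The fitted log2 fold change of 1.33 over Low (SE 0.30, limma adjusted p = 0.003) was at least 1.51-fold when Low was set to its background, and that of 1.77 over adult (SE 0.31, adjusted p = 0.0011) at least 2.39-fold. Without sample 7 the fitted values were 1.29 over Low and 1.72 over adult. Low and adult overlapped, at 0.43 (adjusted p = 0.29) and with neither measurable above background.

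Pcna, the sliding clamp of the DNA polymerases, had 1055, 989.8 and 1196 in the adult samples, 2172, 2451, 2226 and 2765 in Low, and 1519, 2589.6, 851 and 1918 in High. Low was above adult in every sample, by a log2 fold change of 1.15 (SE 0.15, limma adjusted p = 0.0018). High spread from below the adult range to within the Low range, and neither difference passed the test, at -0.59 from Low (SE 0.31, adjusted p = 0.13) and 0.56 from adult (SE 0.35, adjusted p = 0.21). It was the one gene of the 10 that was not called against adult when sample 7 was left out (0.86, adjusted p = 0.019), with -0.29 from Low. Rrm2, a subunit of the ribonucleotide reductase that makes deoxyribonucleotides, had 154, 242 and 111 in the adult samples, 454, 382, 417 and 488 in Low, and 368, 455, 148 and 427 in High. Low exceeded adult without overlap, by 1.43 (SE 0.26, adjusted p = 0.0062), while sample 7 lay among the adult samples. High against Low was -0.43 (SE 0.33, adjusted p = 0.29), and High against adult was 0.99 (adjusted p = 0.071), and they were -0.063 and 1.36 (adjusted p = 0.0055) without sample 7.

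E2f1, the transcription factor of the G1 to S passage, had 56.7, 78.0 and 56.8 in the adult samples, 129, 151, 115 and 180.5 in Low, and 394, 412, 148 and 437 in High. Low lay above adult and 3 of the 4 High samples above Low, while sample 7 fell inside the Low range. The log2 fold change was 1.15 for Low against adult (SE 0.20, limma adjusted p = 0.0059) and 2.33 for High against adult (SE 0.38, adjusted p = 0.00068), with 1 of 3 adult samples above background. It was 1.17 for High against Low (SE 0.34, adjusted p = 0.012), a call lost in turn without High sample 2, 5 or 8 or Low sample 3 or 9, and 1.54 without sample 7. Over adult it was 2.69 without sample 7.

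Top2a encodes the topoisomerase that untangles sister chromatids. It had 141, 157 and 124 in the adult samples, 288, 302, 265 and 435 in Low, and 989.6, 1393, 268 and 1104 in High. Of the High samples, 3 were above every Low sample and sample 7 lay within the Low range. Its mean was 140.5 ± 16.8 in adult (n = 3), 322 ± 76.5 in Low (n = 4) and 939 ± 478 in High (n = 4), or 1162 ± 208 without sample 7. Low exceeded adult by a log2 fold change of 1.17 (SE 0.20, limma adjusted p = 0.0051) and High exceeded adult by 2.51 (SE 0.49, adjusted p = 0.002). High against Low was 1.34 (SE 0.44, limma adjusted p = 0.023) and was not called because its unadjusted value of 0.0109 in the same fit exceeded the limit of 0.01. It was 1.86 without sample 7 (SE 0.24, adjusted p = 0.00012), and High against adult was then 3.03.

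Kif2c, a kinesin that takes apart microtubules at centromeres, had 36.3, 46.6 and 61.8 in the adult samples, 54.2, 73.6, 82.9 and 98.5 in Low, and 138, 308, 96.6 and 156 in High. Adult and Low overlapped, and sample 7 lay just under the highest Low sample. Only 1 Low and 1 adult sample were above background. High against adult was 1.73 (SE 0.38, limma adjusted p = 0.004). High against Low was 1.06 (SE 0.34, adjusted p = 0.019), and the call was lost without any one of High samples 2, 5 and 8 or Low samples 3, 6 and 9. Without sample 7 the values were 1.97 over adult and 1.30 over Low. Low against adult was 0.67 (SE 0.25, adjusted p = 0.088). Birc5, which encodes survivin of the chromosomal passenger complex, had 47.6, 52.4 and 32.1 in the adult samples, 125, 151, 104 and 152 in Low, and 117, 190.1, 33.7 and 108 in High. Low was above adult without overlap, by 1.59 (SE 0.22, adjusted p = 0.0023), with 37 to 43 probe counts in Low and 1 of 3 adult samples above background. High spread across both other groups, at -0.47 from Low (SE 0.43, adjusted p = 0.37) and 1.12 from adult (adjusted p = 0.082). Without sample 7 the difference from Low was 0.024 and that from adult 1.61 (adjusted p = 0.0022).

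Sample 7 thus decided several values. Without it 5 of the 10 genes were called higher in High than in Low, Top2a being added, with 29.1% of the panel, and 9 were called higher than in adult, with 31.4%. Adding the excluded sample 11 to the adult group ended every call against adult. Then 0 of the 10 genes were called in Low against adult, where 2.73% of the panel was called higher, and 0 in High against adult, where 6.36% was, with unadjusted limma p-values under 0.05 for 1 and 2 of the 10. Sample 11 had 1977 for Mcm6, 1502 for Top2a and 3196 for Pcna, all above every other sample of the 12.

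**Figure D3:**
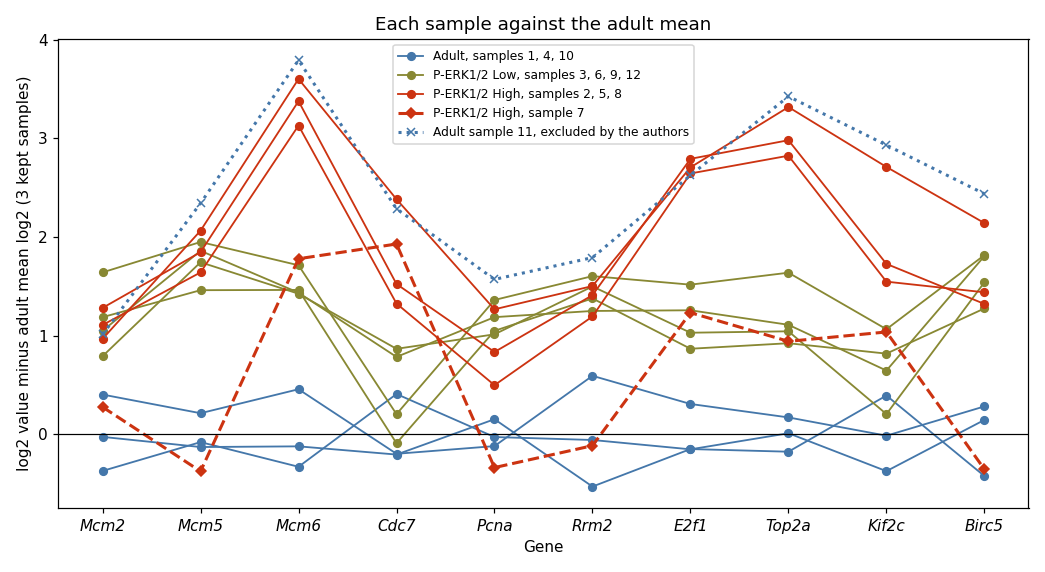
Log2 value of each gene in each sample minus the mean log2 value of the 3 kept adult samples, with colors by group. The dashed line with diamonds is High sample 7 and the dotted line with crosses is adult sample 11. High samples 2, 5 and 8 run together and rise at Mcm6, E2f1 and Top2a, sample 7 returns to the adult level at 5 genes, and sample 11 lies with or above the High samples at most genes.

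The likeness of the 10 genes across the 11 kept samples is described here by Pearson's r over log2 values without a test, since the samples share groups, scaling and depth. Mcm6 was nearest among the 10 to E2f1 (r = 0.989), as was Top2a (0.986), and Birc5 was nearest to Mcm5 (0.978), as were Pcna (0.933) and Rrm2 (0.955). Mcm2 and Cdc7 had lower values with their nearest of the 10, Rrm2 for Mcm2 (0.896) and Mcm6 for Cdc7 (0.775). The lowest r was that of Pcna and Cdc7 (0.125), where the Cdc7 values of all 7 Low and adult samples were below background. Over the whole panel, E2f1 was most like Lig1, which encodes the ligase that joins Okazaki fragments (0.991). Top2a was most like Stmn1, a regulator of microtubules (0.987), Mcm6 most like Anxa1 (0.992), and Kif2c most like Clec7a, a receptor raised in reactive microglia (0.965). Both Mcm5 (0.981) and Birc5 (0.982) were most like Nqo1, a quinone reductase. Pcna was most like Lrrc25 (0.971), Rrm2 most like Timp1 (0.961), Cdc7 most like Rnf8 (0.957) and Mcm2 most like Crip1 (0.925).

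The panel held 12 other genes of replication and S phase, among them a ligase, a polymerase subunit and nucleases. In Low against adult 3 were called higher (Lig1, Topbp1 and Dnmt1) beside 8.05% of the panel, and the median log2 fold change was 0.80 (0.10 over all genes). In High against Low 3 were called higher (Lig1, Fen1 and Zfp367) and 1 lower (Topbp1), beside 28.2% and 9.61% of the panel, and the median was 0.08 (0.26 over all genes). Fen1, the flap endonuclease of lagging strand synthesis, had 97.6, 64.0 and 93.9 in the adult samples, 159, 137, 169 and 209 in Low, and 525, 991, 459 and 773 in High. Its groups did not overlap, sample 7 included, and High exceeded Low by 1.97 (SE 0.28, limma adjusted p = 0.00015). Topbp1, which acts in replication start and in the checkpoint, fell by 1.23 on the log2 scale in High against Low (SE 0.28, adjusted p = 0.0033).

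Of 9 further cell cycle and mitosis genes, 3 were called higher in Low than in adult (Ncaph, Stmn1 and Lmnb1), and 4 higher in High than in Low (Cdc25a, Cks1b, Anapc15 and Stmn1), beside 8.05% and 28.2% of the panel. Their median log2 fold changes were 0.46 and 0.40, beside 0.10 and 0.26 over all genes. Cdc25a, the phosphatase that activates cyclin-dependent kinases in G1 and S phase, had 74.9, 78.0 and 64.2 in the adult samples, 122, 102, 88.3 and 90.2 in Low, and 506, 634.0, 456 and 578 in High. Here sample 7 stood with the other High samples, and the log2 fold change over Low was 2.42 (SE 0.22, limma adjusted p = 7.4e-06), with 2 of 4 Low and 1 of 3 adult samples above background. Of 8 genes of cell cycle arrest and the p53 response, 0 were called between High and Low in limma, beside 28.2% of the panel called higher and 9.61% lower. A plain test also called 0, beside 20.3% higher and 4.29% lower. In limma 2 of the 8 had an unadjusted p under 0.05. These were Trp53, which encodes p53 and was lower in High without overlap (-0.96, SE 0.23, adjusted p = 0.0038) but within the fold limit, and Sesn2, at 0.78 (adjusted p = 0.075). Gadd45a, a stress gene that restrains the cycle, was called lower in Low than in adult (-1.80, SE 0.21, limma adjusted p = 0.001), beside 2.73% of the panel. It was also called lower in High than in adult (-2.67, SE 0.53, limma adjusted p = 0.0024), beside 7.66%. With sample 11, which had 55.9 for Gadd45a, among the adult samples, 0 of the 8 were called lower in either comparison, beside 1.69% and 0.00% of the panel. Cdkn1a, the cyclin-dependent kinase inhibitor p21, was not called in any comparison. It had 0.55 for Low against adult (limma adjusted p = 0.063), 0.87 for High against adult (adjusted p = 0.036) and 0.32 for High against Low (adjusted p = 0.3). Every Low and every High sample lay above every adult sample for it, as for 26.1% and 35.1% of the panel. Of 5 genes that link ERK to the cycle, 1 was called higher in High than in Low, beside 28.2% of the panel, and this was Ets2 (3.18, SE 0.29, adjusted p = 7.4e-06). Egr1 was called in Low against adult (1.09, adjusted p = 0.0032) and had lower values in every High sample than in any Low sample without passing the test (-0.58, adjusted p = 0.094). Fos was not called between High and Low (-0.03, adjusted p = 0.96), although Fos was called in Low against adult (1.80, adjusted p = 0.0006). The Fos value rested on sample 7, which had 394 where High samples 2, 5 and 8 had 2016, 2270.1 and 1747, all above the 1115 to 1551 of Low, and without it the difference was 0.56 (SE 0.21, limma adjusted p = 0.044), within the fold limit.

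**Figure D4:**
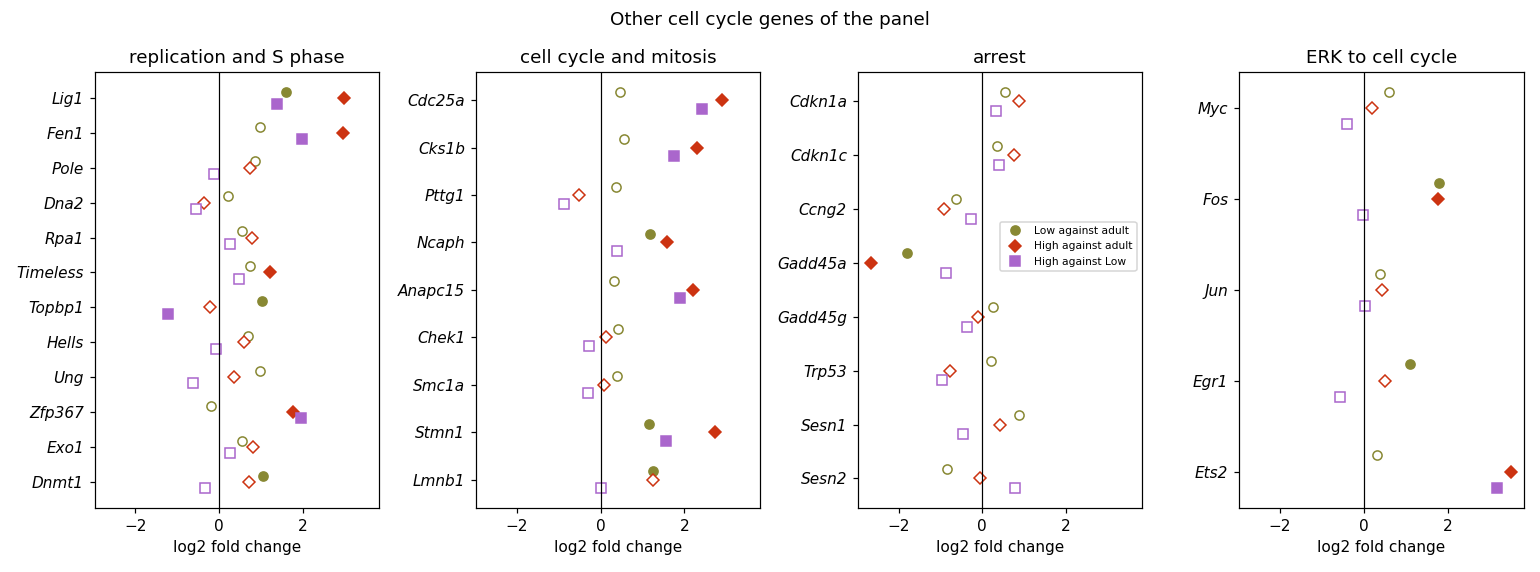
Log2 fold changes of the other cell cycle genes of the panel, by list, in P-ERK1/2 Low against adult (circles), High against adult (diamonds) and High against Low (squares). Filled symbols were called. Lig1, Fen1, Zfp367, Cdc25a, Cks1b, Anapc15, Stmn1 and Ets2 were called higher and Topbp1 lower in High against Low, while 0 of the 8 arrest genes were.

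Markers of other cells also moved between the groups. The 10 T and NK cell markers summed to 307 to 1119 in High, 172 to 259 in Low and 144 to 301 in adult, where in Low 0 of the 10 were above background in any sample. In High 1 of them, Cd3e, was above background in every sample (112, 801, 365 and 149.5 in samples 2, 5, 7 and 8) and 3 in none. The 4 B cell markers summed to 146 to 321 in High, 94.7 to 147 in Low and 59.4 to 143 in adult, with 0 of them above background in any Low or adult sample and Blk above it in every High sample. The sums of 5 neuron markers were 185 to 376 in High, 173 to 235 in Low and 164 to 195 in adult, with Rbfox3 at 88.9 to 265 in High and 13.6 to 32.8 in Low, where 0 samples were above background, and Tubb3 at 28.1 to 38.0 in High and 50.8 to 102 in Low, where 1 was. Those of 5 oligodendrocyte markers were 156 to 301 in High, 119 to 168 in Low and 157 to 274 in adult. The 4 astrocyte markers summed to 1166 to 1893 in High, 508 to 734 in Low and 378 to 597 in adult, and 5 endothelial markers to 469.9 to 856 in High, 175 to 258 in Low and 241 to 340.3 in adult. Of 4 monocyte and border macrophage markers, Ccr2 and Cd163 were above background in no Low or adult sample and in 3 and 4 of the 4 High samples. Cd163 had 59.5 to 75.5 in High, 24.6 to 37.3 in Low and 19.8 to 40.8 in adult. Ccr2 overlapped among the groups, at 28.0 to 54.3, 13.4 to 42.1 and 22.1 to 56.7 in turn, and the background was lower in High. The sum of the 4 was 478 to 1884 in High, 2536 to 3220.3 in Low and 563 to 735 in adult, and Cd36 was 2416 to 3085 of the Low sum. The 3 neutrophil markers summed to 128 to 489.6 in High, 283 to 423 in Low and 603 to 949 in adult, and Ly6g was above background in none of the 11 kept samples. The part of these cells in the values of the 10 genes was not tested, and in such bulk samples fewer cells of a type and less RNA per cell cannot be told apart.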

How the data were processed

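The NanoString Neuroinflammation panel was read on the nCounter for all 12 samples, and the authors normalized its counts in nSolver, whose version is not given in the sources used. The deposited gene values are signal values in which each probe count was multiplied by 1 factor per sample that brings the 13 housekeeping genes to one geometric mean, with no background subtracted. The 8 negative and 6 positive control probes were deposited as unscaled counts. Division by the factor gave values within 0.1 of a whole number for 99.83% of the gene values, which were taken as probe counts. All 12 columns carried the identifier of their sample, and sample 11 was left out of the main comparisons.

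Each comparison was fitted over all 770 genes in R 4.3.3 with the package limma (version 3.58.1), two-sided, on log2 values after adding a pseudocount of 1, with only its own groups and no filter. A call needed a p below 0.01 together with a log2 change of more than 1, the limits the study states for this panel, and adjusted p-values followed Benjamini and Hochberg. Fold changes on this scale understate changes of low genes. Where no sample of a group was above background, the fold is given against the background of that group. The probes' sequences were not used here. Gene names matched a RefSeq symbol for 763 of 770 genes and all 10 genes described. These genes, the other gene lists and the marker lists were chosen with earlier results of these data known. The named genes are the 10, genes of those lists and, for each of the 10, the gene with the highest Pearson correlation.

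The alternatives changed the pseudocount to 0.1 or 20 or kept genes with a mean value of 50 or more. Scaling was by median of ratios, by the 6 housekeeping genes that varied least against each other, or by total count. Others were subtraction of the mean of 18 genes of other tissues, a spread shared by 3 groups, an adjusted p under 0.05 and a plain test with unequal variances. The last were leaving out each sample in turn, adding sample 11, and a background of 3 SD. Scaling by the positive controls and subtraction of the negative controls were added after seeing the data.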

Additional observations from a re-analysis of the deposited data

Results flagged for a closer look

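E2f1 in High sample 7, at 148, and Mcm6 in Low sample 12, at 468, lay far from the other samples of their group by Dixon's test, 2 of 20 groups of 4 samples, where chance flags about 1 in 20.

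Adult sample 11, which entered no comparison, was above all 3 kept adult samples for each of the 10 genes. Its values were 178 for Mcm2, 754 for Mcm5, 1977 for Mcm6, 209 for Cdc7, 3196 for Pcna, 556 for Rrm2, 389 for E2f1, 1502 for Top2a, 359 for Kif2c and 233 for Birc5. They exceeded every High sample for 7 of the 10 genes. Its total of 1464449 probe counts lay in the range of the High samples, and the geometric mean of its positive controls was 286, against 954 to 1460 in the other 11 samples. The part of quality or depth in these values was not tested.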

How the results depend on the processing

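The counts of genes called higher were 4 for High against Low, 8 for Low against adult and 5 for High against adult. With High against Low, median-of-ratios scaling gave 2 (23.0% of the panel), subtraction of the 18-gene background 1 (21.8%), the plain test 1 (20.3%) and positive-control scaling 10 (85.6%). Total-count scaling called 5, all lower (40.4%), and leaving out 1 sample gave 2 to 5 (24.7% to 29.9%). Of the 18 background genes, Kir3dl2, Ceacam3, Tcl1 and Epcam were themselves higher in every High sample than in any Low sample, and Cd209e was lower. Kir3dl2 had 85.2 to 415 in High and 12.3 to 38.6 in Low, so the list itself differed between the groups. With Low against adult, total-count scaling gave 4 (3.12%), positive-control scaling 0 (1.04%), the plain test 5 (5.32%), sample 11 among the adults 0 (2.73%), and leaving out 1 sample 7 to 8 (6.75% to 8.70%). With High against adult, the 6 housekeeping genes gave 9 (45.7%), total-count scaling 1 (5.19%), positive-control scaling 10 (54.5%), sample 11 among the adults 0 (6.36%), and leaving out 1 sample 5 to 9 (25.2% to 31.4%). The other alternatives stayed within 1.5 times.

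Signs turned only where named here. In High against Low, the 6 housekeeping genes gave 0.30 for Birc5, 0.51 for Mcm2, 0.31 for Mcm5, 0.18 for Pcna and 0.34 for Rrm2, and the positive controls 1.50, 1.71, 1.52, 1.40 and 1.55 for the same genes. Leaving out 1 sample gave -0.80 to 0.024 for Birc5 and -0.71 to 0.10 for Mcm5. In Low against adult, the positive controls gave -0.35 for Cdc7 and -0.13 for Kif2c, and sample 11 gave -0.13 and -0.056. In High against adult, total-count scaling gave -0.27 for Birc5, -0.50 for Mcm2, -0.12 for Mcm5, -0.85 for Pcna and -0.42 for Rrm2. The median of all genes moved with the scaling, and beyond that the cause was not tested.

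With a background of 3 SD, 9, 6 and 4 of the 10 genes were above it in every High, Low and adult sample, beside 540, 336 and 368 of the 770 panel genes. Low counts limit Cdc7 and Kif2c in Low and adult. A planned count model on the recovered probe counts was not run. A unit check did not accept recovered counts for columns that join scaled gene values to unscaled control counts. The gene values alone gave near-whole numbers for 99.83%, as stated above. No paired analysis was possible because the sample numbers 1 to 12 are each used once and pair no samples across groups.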
